A study of Mus musculus with 54 samples.

Results

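The 10 mouse genes described here were grouped as platelet and megakaryocyte genes. They were taken by name from the 23154 genes of a single-cell count table: Pf4, Ppbp, Itga2b, Gp1bb, Gp9, Gp5, F2r, Vwf, Mmrn1 and Plek. All 10 were present in the table and all 10 passed the filter on low counts in every comparison. The table came from a modified Smart-seq2 protocol that reads the 3′ ends of mRNA in single sorted haematopoietic cells of C57BL/6 mice aged 8 to 10 weeks. Transplanted cells were collected on day 1 (61 cells, 3 libraries), day 3 (125 cells, 3 libraries), day 5 (336 cells, 7 libraries) and day 7 (389 cells, 10 libraries), and the donor and host genotypes were not given. The steady state cells fell into 28 sorting gates, among them a gate labelled MK (19 cells, 2 libraries), 5 gates for haematopoietic stem cells pooled as iHSC (305 cells, 12 libraries) and 9 gates for multipotent progenitors pooled as iMPP (508 cells, 17 libraries). The iHSC gates were LT_HSC, Fraction I, Fraction III, ESLAM and ESLAMSK, and the iMPP gates were HPC2, MPP2, MPP1, Fraction II, ST_HSC, HPC3, MPP3, MPP4 and LMPP. The animals behind each library were not given, and neither were the antibodies that defined the MK gate.

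Megakaryocytes are the large marrow cells that shed platelets, and they can arise from multipotent progenitors or, by a shorter route, from stem cells that already transcribe platelet genes. Pf4 (platelet factor 4) and Ppbp (pro-platelet basic protein) encode chemokines stored in the alpha granules of platelets, and their genes lie next to each other. Itga2b encodes CD41, the alpha chain of the fibrinogen receptor, which is also present on early haematopoietic cells. Gp1bb, Gp9 and Gp5 encode chains of the glycoprotein Ib-IX-V complex, the receptor through which platelets hold on to von Willebrand factor. F2r encodes PAR1, a receptor cleaved by thrombin. Vwf encodes von Willebrand factor itself, made in megakaryocytes and endothelium and used as a mark of platelet-primed stem cells, and Mmrn1 encodes multimerin 1, a carrier of factor V. Plek encodes pleckstrin, a protein kinase C substrate of platelets that leukocytes also make. Read assignment limits one of them: of the 2087 exon bases of Gp1bb (chromosome 16, 18620317 to 18622403, GRCm38), 91.1% are shared on the same strand with Sept5 or Gm49601, so values of Gp1bb are uncertain. Sept5 averaged 0 CPM (the summed counts scaled to a total of 1000000) in HPC2 and MPP2 and 10.4 ± 14.7 CPM (SD, n = 2) in the MK gate. Which of the Gp1bb exon bases the reads covered was not determined. Levels of different genes are not compared here.

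The start regions of 4 of the genes are shown as examples. The mean of each was higher in the HPC2 gate than in any iHSC gate, as described further down. This did not set them apart, since it also held for Gp1bb, F2r, Plek, Ppbp and Vwf. Each run holds 250 bases before and 50 after the annotated start (RefSeq, GRCm38.p6), written 5′ to 3′ along the gene. Capitals mark GATA, the core that GATA factors bind, and GGAA, the core that ETS factors bind, each on either strand (TATC and TTCC on the other strand; a GATATC run holds both orientations).
Pf4, chr5:90772185-90772484, plus strand: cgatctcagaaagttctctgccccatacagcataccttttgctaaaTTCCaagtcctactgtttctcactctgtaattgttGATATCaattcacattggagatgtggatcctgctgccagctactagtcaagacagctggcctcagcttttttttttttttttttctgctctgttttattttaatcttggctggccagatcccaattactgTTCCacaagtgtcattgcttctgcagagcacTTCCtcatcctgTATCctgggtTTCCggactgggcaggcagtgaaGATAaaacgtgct
Gp9, chr6:87777820-87778119, plus strand: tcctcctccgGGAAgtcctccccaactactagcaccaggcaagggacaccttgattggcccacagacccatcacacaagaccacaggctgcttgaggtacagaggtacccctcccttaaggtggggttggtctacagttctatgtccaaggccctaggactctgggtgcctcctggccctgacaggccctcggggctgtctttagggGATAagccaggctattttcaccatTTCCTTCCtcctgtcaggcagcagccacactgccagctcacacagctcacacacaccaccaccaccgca
Gp5, chr16:30310732-30311031, minus strand: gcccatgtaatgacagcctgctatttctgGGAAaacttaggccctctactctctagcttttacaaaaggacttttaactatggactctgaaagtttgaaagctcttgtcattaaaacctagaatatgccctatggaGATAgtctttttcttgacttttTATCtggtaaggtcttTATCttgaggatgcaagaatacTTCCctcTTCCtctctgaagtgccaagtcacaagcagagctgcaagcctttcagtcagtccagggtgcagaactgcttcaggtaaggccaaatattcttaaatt
Itga2b, chr11:102469834-102470133, minus strand: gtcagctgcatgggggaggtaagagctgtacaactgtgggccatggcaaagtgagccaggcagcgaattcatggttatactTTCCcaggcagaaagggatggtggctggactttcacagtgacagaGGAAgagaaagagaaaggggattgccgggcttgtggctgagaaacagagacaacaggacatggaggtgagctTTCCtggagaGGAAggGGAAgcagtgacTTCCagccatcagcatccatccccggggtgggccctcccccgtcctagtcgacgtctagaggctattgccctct
Of the 9 genes with an entry, 7 held at least 1 GATA match, against 57.9% of 32851 promoters of the same length, and 9 held GGAA, against 96.0%. Pf4 had 4 GATA matches, Gp5 had 3, Gp9 had 1 and Itga2b had none in this window. Itga2b had 6 GGAA matches, Pf4 had 4 and Gp9 and Gp5 had 3 each. These are letter matches only. No sequence was printed for Vwf.

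Annotated cells carried 20013 to 1943315 counts (median 203971). Libraries were the replicates, and every test compared sums over at least 5 cells of a group within a library. The sums of the day groups ranged from 745742 to 19264079 counts, those of the MK gate from 721966 to 949989, those of iHSC from 517741 to 14674872 and those of iMPP from 1437165 to 27619476. Several libraries stood apart. Library L78 of day 7 had far more of several members than the other day 7 libraries. Library L49 was labelled with iMPP1 (ST_HSC) and iMPP2 (LMPP), whereas the cell annotation placed its cells in HPC2 and Fraction II. Values without either are given beside the results that it moved most. Lymphoid and mature myeloid gates set the background. Pf4 was detected in 0% of B cells, NK cells and CD4T cells. It was detected in 2.17% ± 3.07 of CD8T cells and 7.50% ± 10.6 of granulocytes (SD, n = 2 libraries each). Median depths per library were 78532 to 147840 counts in these 5 gates. Other gates had higher shares: Pf4 was detected in 16.7% of macrophages (24 cells, 1 library) and 20.8% ± 10.98 of CLP cells (SD, n = 2 libraries). In monocytes the share was 2.78% ± 3.93 (SD, n = 2 libraries).

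Which steady state gates carry the platelet genes was described first. The libraries of the iHSC, iMPP and MK gates were labelled either bone marrow or bone marrow and spleen. Pf4 was highest in HPC2 at 5936 ± 5258 CPM (SD, n = 3), with 7280, 10391 and 136 CPM in L23, L26 and L49. Without L49, whose label differs from the annotation, the other two HPC2 libraries averaged 8836 ± 2200 CPM. MPP2 followed with 3264, 222 and 1023 CPM (mean 1503 ± 1577, n = 3), then MPP1 with 1361 and 1533 CPM (mean 1447 ± 121, n = 2) and Fraction II with 1164 and 409 CPM (mean 787 ± 534, n = 2). The means of these 4 progenitor gates were above that of the MK gate, where Pf4 had 295 and 416 CPM, but the lowest library of HPC2 and of MPP2 lay below both MK libraries. Without L49 Fraction II had 409 CPM, between the MK libraries. The library ranges of HPC2, MPP2 and MPP1 overlapped, so their order was not resolved, and of the steps from the highest gate down to the eighth, only that between MPP1 and Fraction II separated all libraries. The iHSC gates averaged 17.6 CPM in LT_HSC to 121 CPM in Fraction I. In MPP3 and MPP4 Pf4 averaged 11.6 ± 12.9 and 6.2 ± 10.6 CPM, the second from 18.4 CPM in L52 and at most 0.04 CPM in the other libraries.

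Of the surface receptor genes, Itga2b and Gp5 had much the same order. Itga2b averaged 414 ± 288 CPM in HPC2, 284 ± 130 CPM in MPP2 (both n = 3) and 214 ± 50.4 CPM in MPP1 (n = 2). It was detected in 97.1% ± 5.02 of HPC2 cells and 97.6% ± 4.12 of MPP2 cells. Gp5 averaged 95.5 ± 62.99 CPM in HPC2, 62.98 ± 31.5 CPM in MPP2 and 45.6 ± 9.41 CPM in MPP1, against 1.39 CPM in the MK gate and at most 11.2 CPM in any iHSC gate. Gp1bb averaged 351 ± 302 CPM in HPC2 and 154 ± 79.4 CPM in MPP1, then 118 ± 93.0 CPM in the MK gate and 96.1 ± 86.8 CPM in MPP2. Gp9 was less restricted: it averaged 162 ± 99.0 CPM in HPC2, 157 ± 13.9 CPM in Fraction II and 84.4 CPM in ESLAMSK, and its highest mean, 214 CPM in the MK gate, came from 402 CPM in L28 and 26.3 CPM in L55. F2r averaged 163 ± 62.5 CPM in MPP2 and 72.2 ± 39.8 CPM in ESLAM, and had 0 CPM in L28 and 18.0 CPM in L55 of the MK gate. HPC2 rested on few libraries: without L49 it averaged 580.0 CPM of Itga2b, 521 CPM of Gp1bb, 130.3 CPM of Gp5 and 217 CPM of Gp9, and without L26 it averaged 231 CPM of Gp1bb.

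Vwf and Mmrn1 were also high in stem cell gates. Vwf had 103 and 132 CPM in the ESLAM libraries (mean 117 ± 20.5) and was detected in 75.3% ± 31.6 of their cells, which placed ESLAM next to HPC2 (142 ± 129 CPM, n = 3). Without L49 HPC2 averaged 209.7 CPM of Vwf, and without L26 it averaged 81.4 CPM, below ESLAM. The 2 LT_HSC libraries differed widely, with 1.20 and 163 CPM of Vwf. Mmrn1 was highest in ESLAMSK at 173 ± 90.2 CPM (n = 3), followed by Fraction I at 158 ± 53.2 CPM (n = 3), and it was detected in 89.8% ± 9.30 of ESLAMSK cells. MPP2 held less Mmrn1, 34.4 CPM, with 51.8, 39.6 and 11.7 CPM in its 3 libraries. Because Vwf is also an endothelial gene, an endothelial list of 10 genes was summed: it ranged from 51.4 to 208 CPM in HPC2 libraries and averaged 416 CPM in ESLAM and 368 CPM in Fraction I, and its part in the Vwf level was not tested.

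Plek was the most widely detected. It was detected in 70.95% ± 12.8 of granulocytes, 69.2% ± 1.12 of NK cells and 59.4% ± 17.01 of B cells (n = 2 each), where Itga2b was not detected in any cell. Its mean was 752 CPM in the MK gate, from 148 and 1356 CPM, and 369 CPM in NK cells. Ppbp was highest in the MK gate: it averaged 216 CPM there and 77.2 CPM in MPP1, from 0 and 154 CPM, and it was not counted in granulocytes, monocytes, GMP, CMP or MEP. It was detected in 16.7% ± 23.6 of B cells and 10.0% ± 14.1 of NK cells (n = 2 each), at means of 2.19 and 0.96 CPM. With 41 cells each, 0 granulocytes and 0 monocytes with a count allow shares of up to 7.32%, for counting error only.

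**Figure D1:**
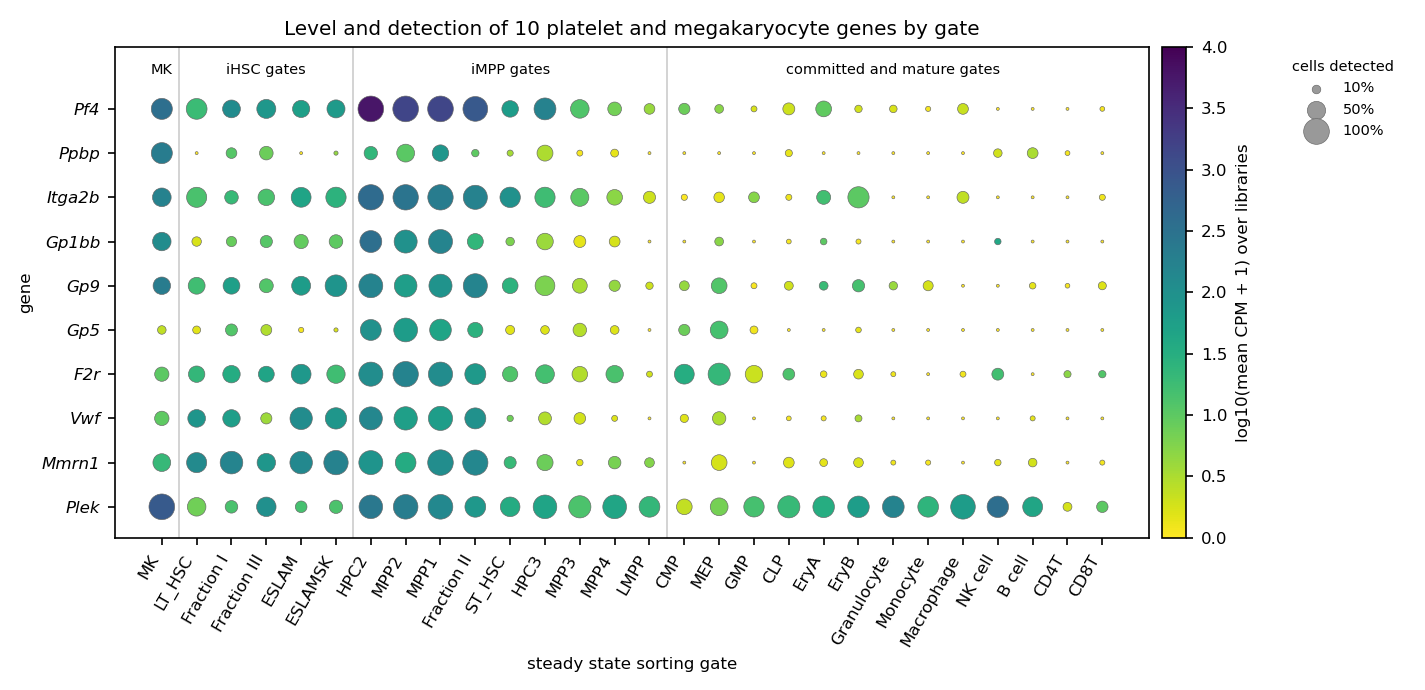
Mean level and detection of the 10 genes in the 28 steady state gates. Colour is log10 of the mean CPM over libraries plus 1, and dot size is the percent of cells with a count, averaged over libraries. Pf4, Itga2b and Gp5 are darkest in HPC2, MPP2 and MPP1, and Gp1bb in HPC2, MPP1 and MK. Vwf and Mmrn1 extend into the stem cell gates, and Plek is present in nearly all gates.

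Across the 28 gates, log2 of CPM plus 1, averaged over libraries, gave Pearson correlations of 0.933 between Pf4 and Itga2b and of 0.926 between Vwf and Mmrn1. Among Pf4, Itga2b, Gp9 and Gp5 the correlations ran from 0.636 (Itga2b with Gp5) upward. Plek correlated with the other 9 members at 0.094 to 0.619. These values describe 28 gates that share libraries, depth and many low values, and carry no test. Among 11498 other genes with at least 10 CPM in some gate, those most like Pf4 were Sdpr (0.914), Treml1 (0.913) and Rab27b (0.882). Those most like Vwf were Sdpr (0.962), Bgn (0.934) and Sgce (0.920), and those most like Mmrn1 included Csgalnact1 (0.964) and Gng11 (0.957). Sdpr (0.877 to 0.904) was also among the 3 genes most like Itga2b and Gp9, with Myom1 (0.902 and 0.906) first for both.

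Single cells differed far more than gates. In HPC2, 14 of 44 cells exceeded 1000 CPM of Pf4, up to 22443 CPM, and these cells held 97.1% of the gate's Pf4 counts. In MPP2, 20 of 72 cells exceeded 1000 CPM and held 89.5% of the counts, and in MPP1, 9 of 72 cells held 83.7%. Pf4 was nonetheless detected in every HPC2, MPP2 and MPP1 cell, with medians of 407, 513 and 251 CPM per cell. In L49, 1 of 23 HPC2 cells exceeded 1000 CPM, against 5 of 7 in L23 and 8 of 14 in L26. With every cell thinned to 20000 counts, at least 5 of the 10 genes were detected in 59.7% of MPP2 cells, 52.3% of HPC2 cells, 44.4% of MPP1 cells, 31.6% of MK gate cells and 22.4% of Fraction II cells. Without thinning, the shares were 97.2%, 84.1%, 98.6%, 52.6% and 89.8%. No cell of the lymphoid, granulocyte, monocyte, macrophage, EryA, EryB, GMP, CMP, MEP, MPP3, MPP4 or LMPP gates reached 5 genes at 20000 counts. The stem cell gates were low too, at 0% in LT_HSC and Fraction III, 1.75% in ESLAMSK, 3.45% in ESLAM and 5.88% in Fraction I.

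**Figure D2:**
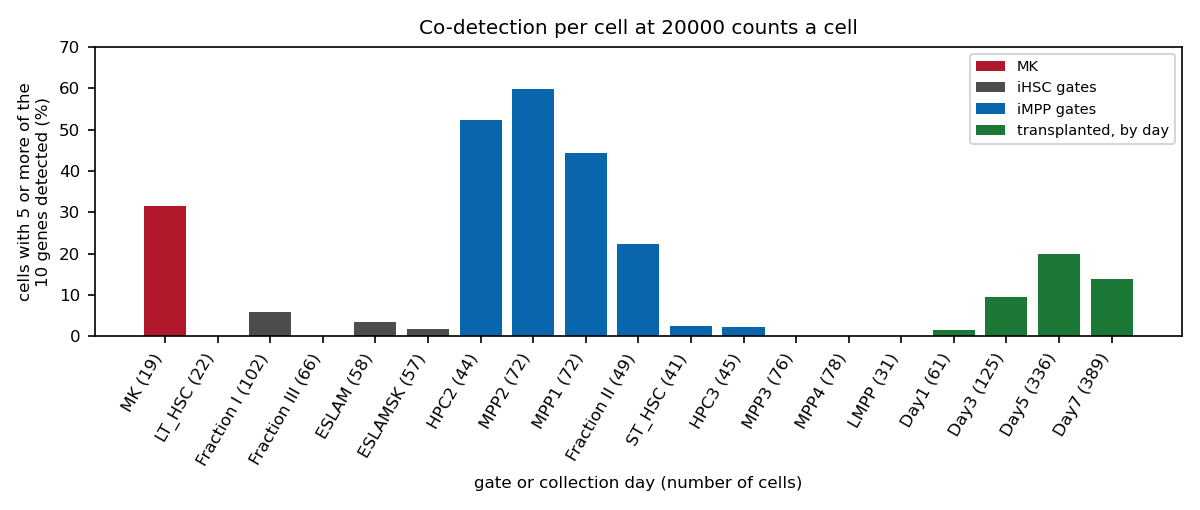
Percent of cells in which at least 5 of the 10 genes were detected after each cell was thinned to 20000 counts, with the number of cells per group in brackets. MPP2, HPC2 and MPP1 lie between 44.4% and 59.7%, and the transplanted cells between 1.64% on day 1 and 19.9% on day 5. The iHSC gates lie between 0% in LT_HSC and Fraction III and 5.88% in Fraction I.

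The gate labelled MK was then examined cell by cell, since its summed markers went against the label. A neutrophil list of 10 genes (Mpo, Elane, Ctsg, Prtn3, Ngp, Camp, S100a8, S100a9, Ltf and Lcn2) summed to 229560 CPM in the MK cells of L28 and 54710 CPM in those of L55, with 10 of 10 genes detected in each, against a mean of 165840 CPM in the granulocyte gate and means of 504 CPM in Fraction I to 10389 CPM in ESLAMSK over the 5 iHSC gates, whose highest library had 30090 CPM. The erythroid gates EryA and EryB were also high, at 155990 and 141990 CPM. Of 37 other megakaryocyte and platelet genes, 14 were at 0 in L28, among them the regulators Gata1, Gata2, Tal1 and Zfpm1, and 3 were at 0 in L55. The mast cell and basophil list summed to 17871 CPM in L55 and 1.05 CPM in L28. In L28, a single cell of 23440 counts carried the platelet genes, with 11860 CPM of Pf4, 12201 CPM of Ppbp, 16297 CPM of Gp9 and 7295 CPM of Itga2b. The other 8 cells of that library had 0 to 9.1 CPM of Pf4 and 116352 to 278478 CPM of the neutrophil list. Without that 1 cell, L28 had 2.16 CPM of Pf4 and 0 CPM of Gp9, against 295 and 402 CPM with it. In L55 all 10 cells had Pf4, from 112 to 2374 CPM. The authors' predicted types split the gate in the same way: the 9 cells called tME3 had at least 5 members each, whereas 1 of the 10 cells called tME1 did.

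**Figure D3:**
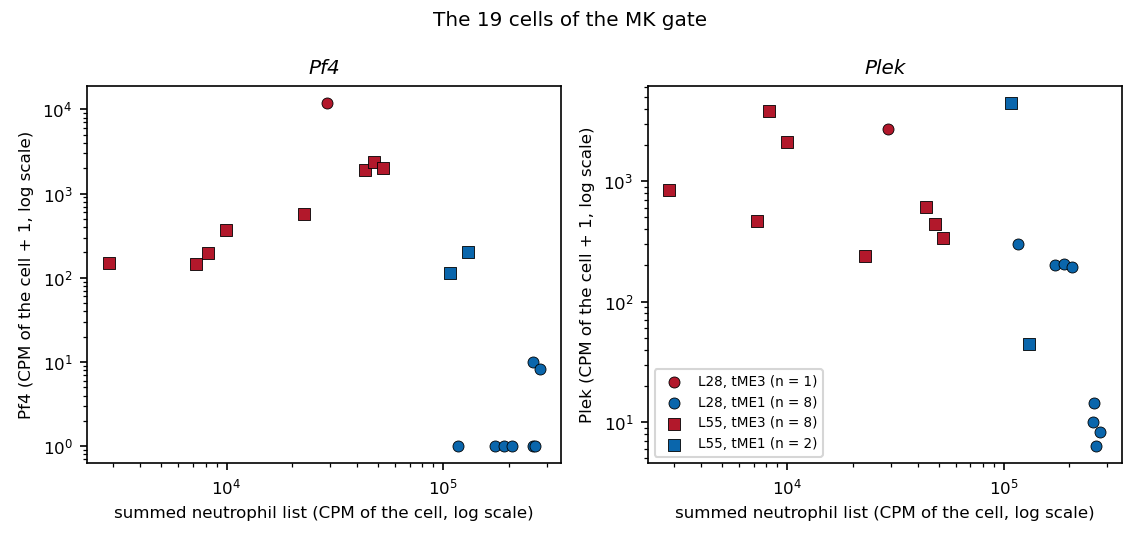
The 19 cells of the gate labelled MK, with Pf4 (left) and Plek (right) against the summed neutrophil list, all as CPM of the cell on log scales, with 1 added to the genes. Circles are L28 and squares L55, red cells were called tME3 and blue cells tME1. One L28 cell has 11860 CPM of Pf4 while the other 8 have at most 9.1 CPM.

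How the gate labelled MK differs from iHSC was tested with this mixture in it. The test called 4 of 10 members, all higher in the MK gate, where 10.8% of all tested genes were called and 7.01% were called higher. The granule chemokine Ppbp had 303 and 129 CPM in the MK gate, against 0 to 30.9 CPM (median 0) in the 12 iHSC libraries, a log2 change of 6.05 ± 1.78 (SE, edgeR adjusted p = 0.0216). Gp1bb had 184 and 52.6 CPM in the MK gate, against 0 to 27.0 CPM in iHSC (log2 change 4.81 ± 1.59, adjusted p = 0.0426). Itga2b had 183 and 169 CPM in the MK gate, against 0 to 46.7 CPM in iHSC (3.66 ± 1.18, adjusted p = 0.0373). For each of these 3 genes both MK libraries lay above every iHSC library, in L28 because of 1 cell. Without that cell, L28 had 2.16 CPM of Ppbp, 12.95 CPM of Gp1bb and 3.24 CPM of Itga2b, each within the iHSC range. Plek had 148 and 1356 CPM in the MK gate, against 1.20 to 346 CPM in iHSC (4.30 ± 0.96, adjusted p = 0.00237), and 1 iHSC library, L54, overlapped. Pf4 did not pass, with 295 and 416 CPM in the MK gate, against 0 to 276 CPM in iHSC (2.95 ± 1.59, adjusted p = 0.249), and neither did Vwf, with 9.5 and 8.3 CPM, against 0 to 163 CPM (-1.95 ± 2.28, adjusted p = 0.586). Gp9, Gp5, F2r and Mmrn1 did not pass either. The median log2 change of the 10 members was 3.08, against -0.96 over all genes. The median of all genes moved by 0.33 with relative log expression (RLE) factors, by 0.96 in DESeq2 and by 1.32 in the voom fit. Of all calls 65.0% were higher in the MK gate, and 78.7% with RLE factors.

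These calls rest on few cells. Leaving out L28 or L55 left 1 library in the MK gate, which was assumed to vary like the other groups. The members called in such fits are therefore not given. The median log2 change of all genes moved by -0.515 without L28 and by -0.814 without L55. Of the 37 further genes of the lineage, 36 were tested, and 7 were higher and 1 lower in the MK gate, with a median log2 change of 1.12. Cd9, a tetraspanin of platelets, changed by 2.96 ± 0.58 (edgeR adjusted p = 6.0e-04). Alox12, the platelet lipoxygenase, changed by 7.28 ± 1.44 (adjusted p = 7.1e-04), and Myl9, a myosin light chain, by 7.09 ± 1.42 (adjusted p = 8.1e-04). The ADP receptor P2ry12 changed by 7.17 ± 1.82 (adjusted p = 0.0073) and Clec1b, the podoplanin receptor CLEC-2, by 5.81 ± 1.57 (adjusted p = 0.0116). The homeobox regulator Meis1 was lower in the MK gate, by -4.23 ± 0.88 (adjusted p = 0.0011).

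Whether stem cell gates and progenitor gates differ in these genes was asked with the pooled iHSC and iMPP. Pf4 and Itga2b were lower in iHSC, the only 2 members called, where 12.5% of all genes were called and 4.94% were called lower. Pf4 averaged 72.8 ± 82.7 CPM in iHSC (0 to 276, n = 12) and 1171 ± 2166 CPM in iMPP (0 to 7280, n = 17), a log2 change of -3.98 ± 1.13 (edgeR adjusted p = 0.0159). Itga2b averaged 21.4 ± 15.03 CPM in iHSC and 131 ± 167 CPM in iMPP (-2.48 ± 0.79, adjusted p = 0.0328). The groups overlapped for both, and the lowest iMPP library was at 0 CPM for each. Mmrn1 averaged 126 ± 83.1 CPM in iHSC and 41.2 ± 46.5 CPM in iMPP and missed the threshold (1.72 ± 0.61, adjusted p = 0.0543). Vwf averaged 53.7 ± 53.5 CPM in iHSC and 41.7 ± 61.05 CPM in iMPP (0.50 ± 0.91, adjusted p = 0.778), and Plek 49.4 ± 98.1 CPM and 90.8 ± 108 CPM (-0.77 ± 0.61, adjusted p = 0.456). Without L54, a sum of 6 cells, Plek averaged 22.4 CPM in iHSC. In the voom fit with the library as a random block, Pf4 (-1.07, adjusted p = 0.758) and Itga2b (-0.75, adjusted p = 0.721) were not called, while Mmrn1 and Plek were. Among the 36 tested lineage genes, 4 were higher and 1 was lower in iHSC, with a median of -0.06. Myl9 (5.48 ± 1.09, edgeR adjusted p = 8.1e-04), Meis1 (1.14 ± 0.30, adjusted p = 0.0076) and Gng11, a G protein subunit (1.61 ± 0.43, adjusted p = 0.0095), were among those higher, and F13a1, the factor XIII A chain (-5.17 ± 1.22, adjusted p = 0.0038), was lower.

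Differences within each pool were tested next. Among the 5 iHSC gates, no member was called by edgeR, where 0.303% of all genes were called. At an unadjusted p under 0.05 there were 4 (Plek, Vwf, Gp5 and Gp9), where 13.1% of all genes passed that level, DESeq2 called 1 and voom called 0. Among the 9 iMPP gates, a comparison added after the data were seen, 8 of 10 members differed, where 1.64% of all genes were called. Itga2b (adjusted p = 4.2e-04), Pf4 (4.6e-04) and Vwf (9.9e-04) had the smallest edgeR adjusted p, followed by Gp1bb, Gp9, Gp5, Mmrn1 and F2r (0.0016 to 0.0094). Plek (0.181) and Ppbp (0.340) were not called. Of the lineage genes, 14 of 34 tested differed among the iMPP gates, among them Gng11 and the transcription factor gene Gata2, and 2 of 34 (F2rl2 and Gng11) among the iHSC gates.

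MPP2 (iMPP4), a gate described elsewhere as megakaryocyte biased, was set against the mean of the other 8 iMPP gates. It had more of 6 of the 10 members, where 0.932% of all genes were called and 0.841% were called higher. Gp5 had 89.5, 28.1 and 71.3 CPM in MPP2 (log2 change 4.69 ± 0.93, edgeR adjusted p = 0.0128). Gp1bb (4.39 ± 0.99, adjusted p = 0.0175), Pf4 (3.68 ± 0.82, adjusted p = 0.0157) and Vwf (3.65 ± 0.86, adjusted p = 0.0254) were higher too. F2r had 203, 194 and 90.7 CPM in MPP2 (3.22 ± 0.67, adjusted p = 0.0128), and Itga2b had 394, 317 and 140 CPM (3.17 ± 0.65, adjusted p = 0.0128). Gp9, Plek, Ppbp and Mmrn1 did not pass. HPC2, one of the other 8 gates, had a higher mean CPM than MPP2 for every member except F2r. Without library L38 the test called Gp5 alone among the members, and 54 genes in all, against 123 with every library. Without L51 it called 1 gene in all and none of the members. Of 34 lineage genes tested, 5 were higher and none lower in MPP2, with a median log2 change of 1.07, against 0.09 over all genes. Those higher included Gata2 (2.31 ± 0.48, adjusted p = 0.0128), the thrombin receptor gene F2rl2 (4.41 ± 0.91, adjusted p = 0.0128), Sdpr (4.15 ± 0.92, adjusted p = 0.0157) and Gata1, the master regulator of megakaryocytes and erythroid cells (3.22 ± 0.84, adjusted p = 0.0476). The erythroid list was also high in MPP2, at 1004 to 3120 CPM per library.

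After transplantation, the mean levels of the members followed different courses over the week. Pf4 averaged 72.8 CPM in iHSC, then 70.7 ± 45.6 CPM on day 1, 375 ± 506 CPM on day 3, 437 ± 300 CPM on day 5 and 406 ± 769 CPM on day 7. Gp5 averaged 3.23 CPM in iHSC and 0.20, 9.87, 20.5 and 27.1 CPM on days 1, 3, 5 and 7. Itga2b averaged 21.4 CPM in iHSC and 23.3, 60.3, 70.6 and 85.3 CPM on these days. Mmrn1 ran the other way, with 126 CPM in iHSC and 33.0, 68.1, 37.4 and 15.2 CPM on days 1, 3, 5 and 7. Single libraries carried some of these means: without L89 day 3 averaged 83.8 CPM of Pf4, 31.0 CPM of Itga2b and 5.14 CPM of Gp5, without L83 day 1 averaged 21.9 CPM of Mmrn1, and without L78 day 7 averaged 168 CPM of Pf4. All 4 comparisons with iHSC share the same 12 iHSC libraries. In sums over many cells, fewer cells with a gene and less RNA per cell cannot be told apart.

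**Figure D4:**
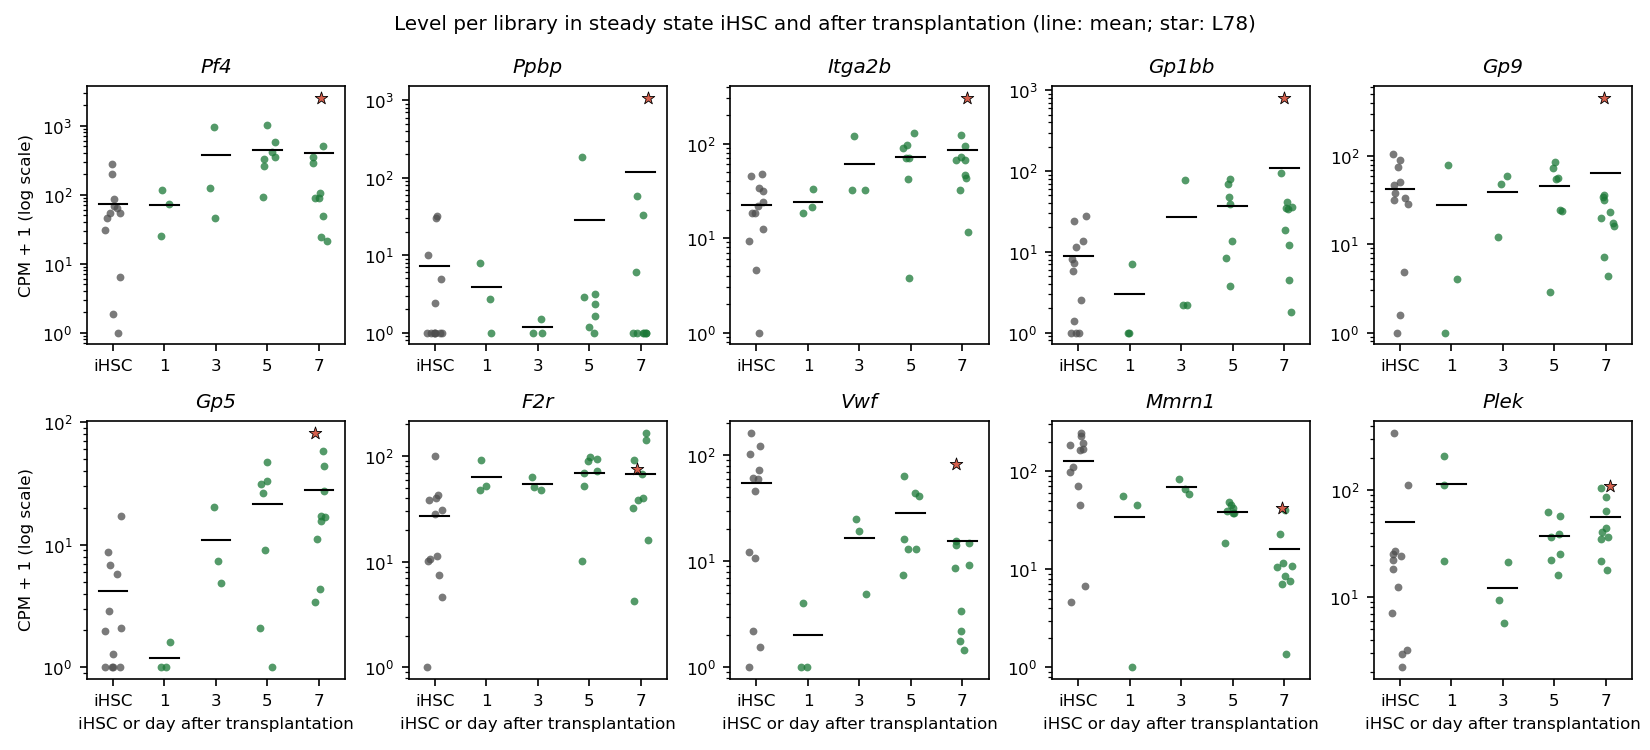
Level of each gene per library as CPM plus 1 on a log scale, in steady state iHSC (12 libraries) and on days 1, 3, 5 and 7 after transplantation (3, 3, 7 and 10 libraries). Lines are means, and the star is L78. Pf4, Itga2b and Gp5 are higher on days 5 and 7 than in iHSC in most libraries, Mmrn1 is lower, and L78 lies far above the other day 7 libraries for Pf4, Ppbp, Gp1bb and Gp9.

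On day 1, no member was called against iHSC, where 3.14% of all genes were called. At an unadjusted p under 0.05 there were 2 members (Vwf and Mmrn1), where 15.7% of all genes passed that level, DESeq2 called Vwf alone and voom called none. Vwf had 0, 3.0 and 0 CPM on day 1, against 0 to 163 CPM (median 51.96) in iHSC (-5.43 ± 1.68, edgeR adjusted p = 0.0669). Pf4 (-0.17 ± 1.07, adjusted p = 0.962), Itga2b (-0.05 ± 0.78, adjusted p = 0.989) and Plek (1.03 ± 0.90, adjusted p = 0.579) did not pass. The neutrophil list summed to 6593, 2467 and 148110 CPM in the day 1 libraries L83, L84 and L87, and its part in these values was not tested. Plek had 112, 20.6 and 206 CPM in the same 3 libraries. None of the 37 lineage genes was called on day 1, nor on day 3.

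On day 3, no member was called against iHSC by edgeR, DESeq2 or voom, where 1.12% of all genes were called, and 2 (Pf4 and Plek) had an unadjusted p under 0.05, as had 10.2% of all genes. Pf4 had 44.9, 123 and 957 CPM (2.26 ± 0.93, adjusted p = 0.351), and library L89 held 4 of the 5 cells above 1000 CPM. Plek fell short of the threshold at 8.4, 4.7 and 20.5 CPM (-2.37 ± 1.13, adjusted p = 0.465), as did Itga2b (1.30 ± 0.70, adjusted p = 0.537) and Vwf (-1.96 ± 1.28, adjusted p = 0.666).

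On day 5, Pf4 and Gp5 rose against iHSC, where 7.57% of all genes were called and 4.28% were called higher. Pf4 had a low of 90.9, a median of 352 and a high of 1026 CPM in the 7 day 5 libraries, against a median of 52.6 CPM in iHSC (0 to 276), a log2 change of 2.56 ± 0.76 (edgeR adjusted p = 0.0298). Gp5 ran from 0 to 46.0 CPM (median 25.6) on day 5, against 0 to 16.2 CPM in iHSC (2.69 ± 0.87, adjusted p = 0.0487). Itga2b (1.60 ± 0.54, adjusted p = 0.0612), Vwf (-1.06 ± 0.85, adjusted p = 0.497) and Plek (-0.59 ± 0.71, adjusted p = 0.680) did not pass. Of the 7 libraries, 4 were labelled spleen alone, and 2 were labelled bone marrow and spleen. With libraries of that label only, 78 genes were called on day 5, against 1011 with all libraries, and no member was among them, at log2 changes of 2.58 for Pf4 (edgeR adjusted p = 0.449) and 3.61 for Gp5 (adjusted p = 0.252). Of all calls 56.6% were higher on day 5, and 44.7% with RLE factors. Of the 37 lineage genes 2 were higher, P-selectin (Selp, 2.59 ± 0.56, adjusted p = 0.0027) and Gp1ba (4.04 ± 1.17, adjusted p = 0.0267), and 3 were lower, among them Gng11 (-1.80 ± 0.52, adjusted p = 0.0250) and Runx1 (-1.35 ± 0.40, adjusted p = 0.0296). The list's median was -0.06, against -0.12 over all genes.

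On day 7, 5 members rose and 1 fell against iHSC, where 20.8% of all genes were called, 10.4% higher and 10.4% lower. With RLE factors 35.5% of all calls were higher, against 50.1% in the edgeR fit. Gp5 had 2.4 to 81.5 CPM on day 7 (median 16.1), against 0 to 16.2 CPM in iHSC (log2 change 3.24 ± 0.84, edgeR adjusted p = 0.0050). Itga2b had 10.5 to 304 CPM (median 66.2), against 0 to 46.7 CPM in iHSC (2.03 ± 0.51, adjusted p = 0.0036). Gp1bb (3.93 ± 0.93, adjusted p = 0.0021), Pf4 (2.61 ± 0.72, adjusted p = 0.0076) and Ppbp (4.53 ± 1.51, adjusted p = 0.0275) also rose in the edgeR fit. In the voom fit Ppbp did not rise. Mmrn1 fell, with 0.36 to 40.8 CPM on day 7 (median 9.67), against 3.59 to 246 CPM in iHSC (median 136), a log2 change of -2.96 ± 0.58 (adjusted p = 2.7e-04). All of these groups overlapped. Vwf (-1.83 ± 0.77, adjusted p = 0.0856) and Plek (0.19 ± 0.63, adjusted p = 0.870) did not pass, nor did Gp9 and F2r.

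Much of this rested on L78. It had 2545 CPM of Pf4, 1082 CPM of Ppbp, 809 CPM of Gp1bb and 458 CPM of Gp9, against at most 509, 57.3, 94.9 and 34.9 CPM in the other 9 day 7 libraries. Pf4 was detected in 35 of its 36 cells and Ppbp in 33 of 36, and 10 cells exceeded 1000 CPM of Pf4. In 6 of the other 9 day 7 libraries no cell had Ppbp. Without L78, an alternative chosen after seeing the data, Gp5 (2.86, adjusted p = 0.0136), Itga2b (1.55, adjusted p = 0.0213) and Mmrn1 (-3.26, adjusted p = 1.3e-04) were called, Vwf was called lower (-2.89, adjusted p = 0.0074), and Pf4 (1.35, adjusted p = 0.127), Gp1bb (2.05, adjusted p = 0.0733) and Ppbp (0.91, adjusted p = 0.689) were not. The mean of Pf4 over the other 9 libraries was 168 ± 172 CPM. The neutrophil list summed to 17270 CPM in L78, within the 1376 to 43153 CPM of day 7. With libraries labelled bone marrow and spleen only, Gp5, Itga2b and Mmrn1 were called as well, with F2r.

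Lineage genes were called in both directions on day 7, with 10 of 37 higher and 4 lower and a median of -0.11, against -0.10 over all genes. Without L78, 5 were higher and 8 lower. Those with the smallest p included Meis1 (-1.75 ± 0.30, adjusted p = 4.8e-05), Gng11 (-2.52 ± 0.46, adjusted p = 1.3e-04), Runx1 (-1.42 ± 0.35, adjusted p = 0.0031), F13a1 (4.97 ± 1.24, adjusted p = 0.0034) and Gata1 (2.74 ± 0.74, adjusted p = 0.0069). Each of these 5 was also called without L78. Of the 15 receptor and surface genes 5 were higher and 0 lower, and without L78 2 were higher and 1 lower. Of the 10 regulators 1 was higher and 3 lower, with and without L78. The difference between these groups was not tested. F13a1 is also a monocyte gene. The HSC list of 8 genes averaged 112 ± 60.8 CPM on day 7, against 1291 ± 171 CPM in Fraction I.

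Days were also compared with each other. Between day 7 and day 1 edgeR called no member, where 2.04% of all genes were called. Of those calls 24.9% were higher on day 7, and 7.28% with RLE factors. Among the members, 5 had an unadjusted p under 0.05 (Gp5, Gp1bb, Vwf, Itga2b and Pf4), all higher on day 7, where 15.3% of all genes passed that level, and without L78 there were 2 (Gp1bb and Gp5). DESeq2 called 2 (Gp1bb and Gp5) and voom 0. Gata1 was the 1 lineage gene called, at 46.0 ± 41.0 CPM on day 7 and 0 CPM in all 3 day 1 libraries (adjusted p = 0.0156), and without L78 there were 3, Gata1 among them. Between day 7 and day 5 edgeR called no member, where 0.404% of all genes were called, 0 had an unadjusted p under 0.05 (2 without L78, Vwf and Mmrn1) where 9.4% of all genes had, DESeq2 called 0 and voom called Mmrn1 alone. The days shared no library, but all rest on 3 to 10 libraries, and a missed threshold does not show that days were alike.

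The authors' predicted types, which were made from the same counts, are described without a test. Among transplanted cells, tMPP2 had the highest means of all members except Mmrn1 and Plek: 839 CPM of Pf4, 168 CPM of Itga2b, 176 CPM of Gp1bb, 49.6 CPM of Gp5 and 38.03 CPM of Vwf over 18 libraries. Without L78 it averaged 101 CPM of Gp1bb. The same type held 64 of the 72 steady state MPP2 cells and 31 of the 44 HPC2 cells. tMPP1 and tMPP5 averaged 77.2 and 45.6 CPM of Pf4 over 13 and 12 libraries. Plek was highest in tGM1, at 187 CPM over 5 libraries, and in tME1, at 185 CPM over 4 libraries, where Pf4 averaged 11.3 and 10.1 CPM (0.88 and 5.48 CPM without L47). tMPP3 held Pf4 in 93.2% of cells at a mean of 65.3 CPM over 5 libraries, and at 26.7 CPM without L66, a day 5 sum of 5 cells. In the 6 tHSC1 cells of 1 library, Mmrn1 was 241 CPM and Vwf 0 CPM.

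Within tMPP2, Pf4 was 43.5 CPM on day 1 (13 cells, 1 library), 581 ± 757 CPM on day 3 (n = 3), 823 ± 313 CPM on day 5 (n = 6) and 1382 ± 1456 CPM on day 7 (n = 5). Without L78 the day 7 mean was 811 ± 809.9 CPM, below that of day 5, and without L89 the day 3 mean was 145 ± 83.98 CPM. Itga2b was 15.4 CPM on day 1, 105 ± 72.3 CPM on day 3, 128 ± 62.5 CPM on day 5 and 277 ± 138 CPM on day 7, and 63.8 CPM on day 3 without L89. On day 7 its lowest library (135 CPM) lay within the day 5 range of 83.3 to 250 CPM. Gp5 was 0.67, 15.3, 40.7 and 89.9 CPM on days 1, 3, 5 and 7, with 9.87 CPM on day 3 without L89. Mmrn1 was 52.2 CPM on day 1, 65.96 ± 11.9 CPM on day 3, 46.9 ± 7.20 CPM on day 5 and 33.1 ± 19.3 CPM on day 7. Within tMPP1, Pf4 was 137, 98.4, 59.3 and 24.95 CPM on days 1, 3, 5 and 7, with 1 library each on days 1 and 7 and with 51.4 CPM on day 3 without L89. The tMPP2 share of cells averaged 22.2% ± 19.2 on day 1, 40.6% ± 6.48 on day 3, 44.1% ± 23.1 on day 5 and 30.8% ± 22.0 on day 7.

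**Figure D5:**
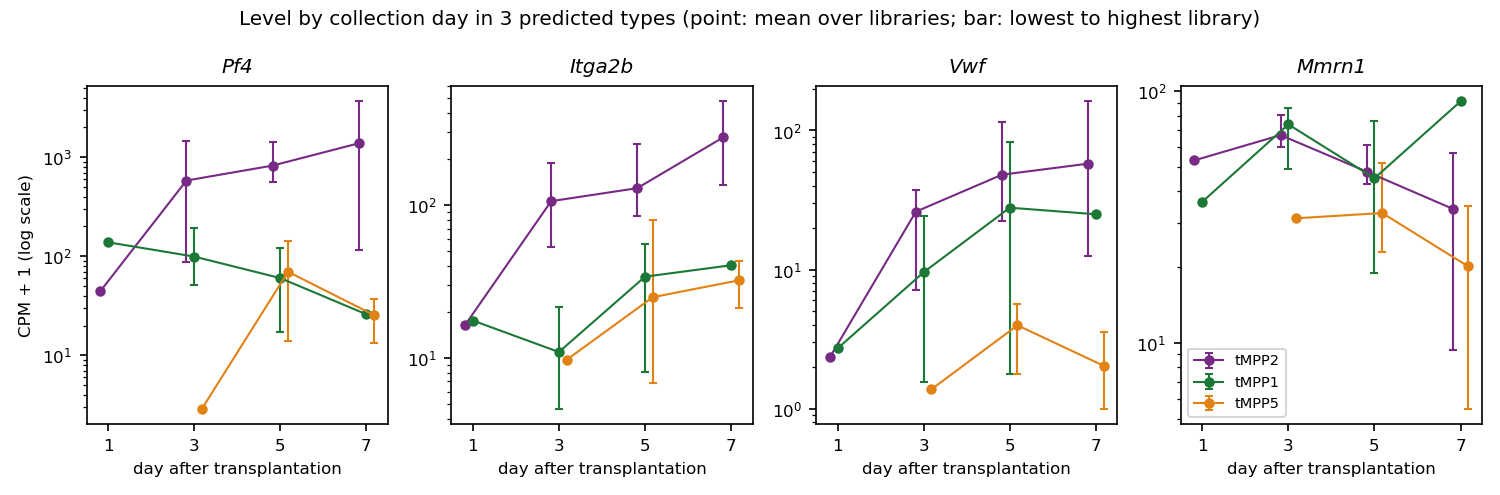
Level of Pf4, Itga2b, Vwf and Mmrn1 by collection day in the predicted types tMPP2, tMPP1 and tMPP5, as CPM plus 1 on a log scale. Points are means over libraries with at least 5 cells of the type, and bars run from the lowest to the highest library. In tMPP2 the mean of Pf4 is higher on each later day, at 43.5, 581, 823 and 1382 CPM, with wide ranges on days 3 and 7, but without L78 the day 7 mean is 811 CPM, below day 5.

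In transplanted cells, too, few cells held most of the counts. On day 5, 29 of 336 cells exceeded 1000 CPM of Pf4 and held 84.9% of its counts, and on day 7, 23 of 389 cells held 90.3%, with a highest cell of 67859 CPM. On day 1 no cell of 61 exceeded 1000 CPM, which allows a share of up to 4.92%. The median cell had 0, 18.4, 57.5 and 16.2 CPM of Pf4 on days 1, 3, 5 and 7. For Ppbp a single cell of L69 held 91.7% of all day 5 counts, although 46 of the 50 cells of that library had at least 1 count, against 0 to 9 cells in each other day 5 library. Averaged over libraries, Pf4 was detected in 46.7% ± 40.7 of cells on day 1, 64.8% ± 23.7 on day 3, 95.4% ± 6.39 on day 5 and 77.6% ± 26.2 on day 7, and at 20000 counts a cell in 23.9%, 48.2%, 66.8% and 40.9%. At that depth, day 7 cells with Pf4 more often had Itga2b (51.4%, against 24.9% of cells without Pf4), Gp1bb (33.3%, against 8.57%), Vwf (15.3%, against 5.31%) and Mmrn1 (22.9%, against 8.16%), while Plek was at 31.9%, against 30.2%. In iHSC cells with Pf4, Itga2b was at 27.4%, against 16.4% of cells without Pf4, Gp1bb at 5.48%, against 3.88%, Vwf at 31.5%, against 28.4%, Mmrn1 at 53.4%, against 56.5%, and Plek at 19.2%, against 8.19%. These shares pool cells of several libraries and carry no test.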

How the data were processed

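Single-cell counts per gene were deposited by the authors as one table of raw counts. The submitters' processing notes name TopHat, HTSeq and mm10 without versions. Whether counts are reads or molecules is not given in the sources used here. The deposited annotation gave origin, gate and predicted type for 2301 of 2879 cells in 54 libraries, and the other 578 cells entered no comparison. Doublets were not called. Counts were summed per library and group (at least 5 cells) and tested with edgeR 4.0.16 (quasi-likelihood, TMM, filterByExpr, two-sided, Benjamini-Hochberg over all genes, threshold 0.05) in R 4.3.3. limma 3.58.1, DESeq2 1.42.0, RLE factors, no filter, at least 10 cells, thinning to 20000 counts and left-out libraries were alternatives. Levels are CPM of the sums, averaged over libraries, and levels or calls without a named library were added after seeing the data, apart from the planned left-out libraries. Libraries may share animals, so p-values measure the spread between libraries, which may be technical, and intervals and limits cover counting error only. Each member was named where called, with Pf4, Itga2b, Vwf and Plek in every comparison with iHSC, and up to 6 further lineage genes by smallest p, of which some are not reported here. The members, gene lists and tests were chosen with earlier results of these data known. The fits were tested on simulated data, where the larger planted changes were mostly recovered and the smaller ones mostly not.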

Additional observations from a re-analysis of the deposited data

Results flagged for a closer look

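Fraction III, day 5 and day 7 had 4 to 10 libraries. Of their 30 combinations with the 10 genes, 14 had a library far from the others by Dixon's test, of which chance flags about 1 in 20, and 6 of the 14 were the same library. Library L78 of day 7 stood high for 6 members: Pf4 (2545 CPM, next 509), Ppbp (1082 CPM, next 57.3), Gp1bb (809 CPM, next 94.9), Gp9 (458 CPM, next 34.9), Itga2b (304 CPM, next 123) and Vwf (81.5 CPM, next 14.6). No single cell made it so: without its highest cell for each gene, L78 still had 2138 CPM of Pf4 and 800 CPM of Ppbp. On day 5, L69 had 183 CPM of Ppbp, against 2.15 CPM in the next library, and L66 was low for Mmrn1 at 17.6 CPM, against 36.2 CPM in the next.

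The 5 libraries of Fraction III were uneven. L55, which also held MK gate and transplanted cells, was high for Pf4 (276 CPM), Ppbp (29.0 CPM), Vwf (9.66 CPM) and Gp5 (7.73 CPM), L50 was high for F2r (184 CPM) and L49 for Gp9 (46.4 CPM).

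Signal was also present in cells outside the comparisons. Among cells with no annotation and at least 20000 counts, 152 of 186 (81.7%) had Pf4. In the 3 libraries that pool days, transplanted cells averaged 182 CPM of Pf4.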

How the results depend on the processing

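By replicate number, no paired analysis was possible because the labels give libraries no such number shared between groups. By library, 7 held sums of more than 1 of the groups compared, and only the voom fit handled each library as a block. A like number of members called can hold other members. For iHSC against iMPP, voom called Mmrn1 and Plek but not Pf4 and Itga2b. On day 7 the number was 6, and 4 without L78, with Vwf called and Pf4, Gp1bb and Ppbp not. The number of members called stayed within 1.5 times except as follows. For the MK gate against iHSC it was 4, and 2 with voom and 1 with DESeq2. Requiring 10 cells, or leaving out either MK library, left 1 library in that gate, so those counts are not given. For iHSC against iMPP it was 2, and 4 with DESeq2 or thinned cells. Among iHSC gates it was 0, and 1 with DESeq2, 4 with no filter, 1 with thinned cells and 0 to 2 with 1 library left out. Among iMPP gates it was 8, and 8 to 9 with 1 library left out, which is within that limit. For MPP2 it was 6, and 2 with DESeq2 and 0 to 6 with 1 library left out. On day 1 it was 0, and 1 with DESeq2, no filter, at least 10 cells or no libraries holding both origins. On day 5 it was 2, and 4 with voom or DESeq2, 0 with matched organs and 1 with no libraries holding both origins. For day 7 against day 1 it was 0, and 2 with DESeq2 or no filter and 1 with only these groups fitted, and for day 7 against day 5 it was 0, and 1 with voom. Leaving out any day 1 or day 3 library gave 0 in each of their comparisons. The causes were not tested.

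Signs reversed for 6 gene results, of which Ppbp on day 7 was a called one. On day 1 Pf4 (-0.17) was 0.91 with voom, 0.22 with no libraries holding both origins and -0.667 to 0.196 with 1 library left out. Itga2b (-0.05) was 0.082 with RLE, 0.00065 with voom, 0.0947 with DESeq2 and -0.448 to 0.116 with 1 library left out, and Plek (1.03) was -0.74 with matched organs. On day 5 Plek (-0.59) was 1.43 with voom, 1.44 with at least 10 cells and 0.11 with thinned cells. On day 7 Plek (0.19) was -0.0747 with RLE, -0.0899 with DESeq2 and -0.75 with matched organs, and Ppbp (4.53) was -0.00903 with voom. RLE factors moved the median log2 change of all genes by 0.33 for the MK gate, -0.13 on day 5 and -0.21 on day 7. Requiring 10 cells moved 0 of 330 mean levels by more than 1 SD. That limit says little, since leaving out a library can hardly move a mean by the SD of those libraries. Plek in the MK gate went from 752 to 1356 CPM and was not counted as moved. Thinning moved 138 of 330 detection rates by more than 1 SD.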
